A study of Macaca mulatta with 8 samples.

Results

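The interleukin-1 family ligands and receptors described here are the 10 genes IL1A, IL1B, IL1RN, IL18, IL33, IL1R1, IL1R2, IL1RAP, IL18R1 and IL18BP, taken by gene symbol from the 35432 genes counted by RNA sequencing. Reads were seen for 9 of the 10, and 7 were abundant enough to be tested. The cells were primary microglia from the subcortical white matter of 4 adult rhesus macaques, R07110 (a male of 13 years), R12016 (a male of 9 years), R02046 (a female of 19 years) and R14143 (a female of 6 years), kept for 8 days in medium with M-CSF. Cells of each animal gave 1 library after 16 h with 10 µg/mL uLPS, an ultrapure lipopolysaccharide that engages TLR4, and 1 library after the same exposure preceded by 1 h with 5 µM MRS2578, an antagonist of the nucleotide receptor P2RY6. Both groups received uLPS and no unexposed cells were sequenced in the libraries used here. The values thus show levels under uLPS and the difference with MRS2578, not induction. The comparison addresses whether MRS2578 alters the interleukin-1 system of uLPS-exposed microglia. The study describes MRS2578 as selective for P2RY6 but not fully specific.

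Interleukin-1α and interleukin-1β, encoded by IL1A and IL1B, both bind the receptor IL1R1, which then recruits the accessory chain IL1RAP and signals through MYD88 and the IRAK kinases to NF-kB. IL1RN encodes the receptor antagonist, which occupies IL1R1 without recruiting IL1RAP, and IL1R2 encodes a decoy receptor that binds ligand without signaling. Interleukin-1β and interleukin-18 are made as precursors that caspase-1 cleaves, interleukin-18 binds IL18R1 and is neutralized by the binding protein encoded by IL18BP, and interleukin-33 is a nuclear alarmin whose receptor is encoded by IL1RL1. In the brain, microglia are a main source of interleukin-1 after Toll-like receptor stimulation.

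One donor needs to be read with care. In the CPM table that the study published for its differentially expressed genes, 6 of 8 columns matched the library with the same label. The 2 columns of R02046 each matched the library with the opposite label. That table thus assigns R02046 the other way round from the deposited labels. The heat shock genes HSPH1, DNAJB1, DNAJA4, CRYAB, HSPB1 and BAG3 were also looked at. The study reported all but BAG3 as induced by MRS2578 from these same libraries. They are therefore not a check of the labels separate from its CPM table. With MRS2578 they were 2.75 to 4.95 log2 units higher in R07110 and 3.58 to 5.38 higher in R12016. They were between -0.07 and 1.13 in R14143, and below 0 throughout in R02046, down to -2.86. The deposited labels were kept as the main assignment, and the fitted change of each member and each ratio is also given without R02046 and with the libraries of R02046 exchanged. Total counts ran from 9231109 to 32790348 per library. Markers of microglia and macrophages summed to between 3970 and 5845 CPM (read counts scaled to a common library size by TMM) and none was at 0 throughout, whereas 6 lymphocyte markers summed to at most 0.518 CPM. Fibroblast markers, led by COL1A1, summed to between 90.2 and 1191 CPM. The sums were 88.7 to 205 CPM for astrocyte markers, led by SLC1A3, and 111 to 132 CPM for oligodendrocyte markers, led by MBP. They were 158 to 296 CPM for endothelial and mural markers, led by PECAM1 with a mean of 142 CPM. Neutrophil markers summed to 2.30 to 9.95 CPM and neuron markers to 0.638 to 8.66 CPM.

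IL1B transcripts were the most abundant of the family by a wide margin, followed by those of IL1A. Per kilobase of annotated exon, the mean level over the 8 libraries was 13240 ± 5926 CPM/kb for IL1B and 584 ± 326 CPM/kb for IL1A (SD, n = 8). IL1RAP followed at 54.6 ± 26.8 CPM/kb and IL1RN at 49.8 ± 54.4 CPM/kb. IL33 was at 9.06 ± 2.37 CPM/kb and IL18 at 4.91 ± 2.19 CPM/kb. The signaling receptor IL1R1, the decoy IL1R2 and IL18R1 lay lowest among the detected members, at 0.295 ± 0.218, 0.184 ± 0.116 and 0.106 ± 0.111 CPM/kb. The lowest library for IL1B (4713 CPM/kb) exceeded the highest for IL1A (1082 CPM/kb), and the lowest for IL18 (2.42 CPM/kb) exceeded the highest for IL1R1 (0.763 CPM/kb). All other neighbours in this order overlapped between libraries. The RefSeq models of IL1B and IL1R2 on Mmul_10 hold only 3 and 6 bases outside the coding sequence and that of IL1RAP 97, against 1536 to 5288 for the other 7 members, and which exons the authors counted is not known, so the levels per length of these 3 genes may be too high relative to the rest. Without division by length, IL1RN (104 CPM) stood above IL1RAP (98.9 CPM), and IL18R1 (0.479 CPM) above IL1R2 (0.218 CPM).

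IL1B lies on the minus strand of chromosome 13 (chr13:16005461-16011323, Mmul_10). With uLPS its level was 11147 CPM (R07110), 11640 CPM (R12016), 6743 CPM (R02046) and 18334 CPM (R14143). With uLPS+MRS2578 it was 7950, 3794, 9673 and 15988 CPM in the same order of donors. IL1B was thus higher with MRS2578 in R02046 and lower in the other 3 donors, and the groups overlapped. The fitted log2 fold change of uLPS+MRS2578 over uLPS was -0.44 ± 0.38 (SE, adjusted p = 0.901), which did not pass the test. Without R02046 it was -0.76 ± 0.34 (adjusted p = 0.405) and with R02046 exchanged -0.70 ± 0.25 (adjusted p = 0.221). The size depended on R12016. Without that donor it was -0.05 ± 0.30 with the deposited labels (adjusted p = 0.9998), where R02046 went the other way. With R02046 exchanged it was then -0.40 ± 0.14 (adjusted p = 0.433).

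IL1A, the neighbouring gene (chr13:15948769-15959827, minus strand), varied more than IL1B between libraries. With uLPS its level was 2097 CPM (R07110), 2018 CPM (R12016), 1043 CPM (R02046) and 3286 CPM (R14143). With uLPS+MRS2578 it was 925, 195, 2104 and 2531 CPM. The library of R12016 with MRS2578 was the lowest of the 8, and the 16.9-fold range between the extreme libraries compares with 4.83-fold for IL1B. Within donors IL1A differed by -1.18 in R07110, -3.37 in R12016 and -0.38 in R14143, and by 1.01 in R02046, on the log2 scale. The study reports lower IL-1α mRNA with MRS2578 from its transcriptome analysis and by RT-PCR. Its CPM table assigns R02046 the other way round. Here, with the deposited labels, the fitted log2 fold change was -0.93 ± 0.67 (adjusted p = 0.892), which did not pass the test. It was -1.60 ± 0.57 without R02046 (adjusted p = 0.321) and -1.43 ± 0.43 with R02046 exchanged (adjusted p = 0.164). Leaving out R12016 brought it to -0.19 ± 0.39 with the deposited labels (adjusted p = 1.00) and to -0.85 ± 0.17 with R02046 exchanged (adjusted p = 0.175). Of the 3037 exon bases of IL1A, 1029 overlap LOC106993134 on the other strand, and as the strand setting of the counting is not given in the sources used here, reads of these genes may be mixed.

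The antagonist IL1RN (chr13:16298692-16314460, plus strand) differed mainly between animals. With uLPS its level was 108 CPM (R07110), 366 CPM (R12016), 14.6 CPM (R02046) and 43.5 CPM (R14143). With uLPS+MRS2578 it was 103, 111, 16.2 and 66.5 CPM. Both libraries of R02046 lay below every other library, whichever label they carry. On the log2 scale the level with MRS2578 differed by -1.72 in R12016 and -0.07 in R07110, and by 0.15 in R02046 and 0.61 in R14143. The fitted log2 fold change was -0.25 ± 0.36 (adjusted p = 0.934). It was -0.39 ± 0.43 without R02046 (adjusted p = 0.754) and -0.34 ± 0.33 with R02046 exchanged (adjusted p = 0.668), and with the deposited labels leaving out R12016 turned it to 0.24 ± 0.17 (adjusted p = 1.00).

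**Figure D1:**
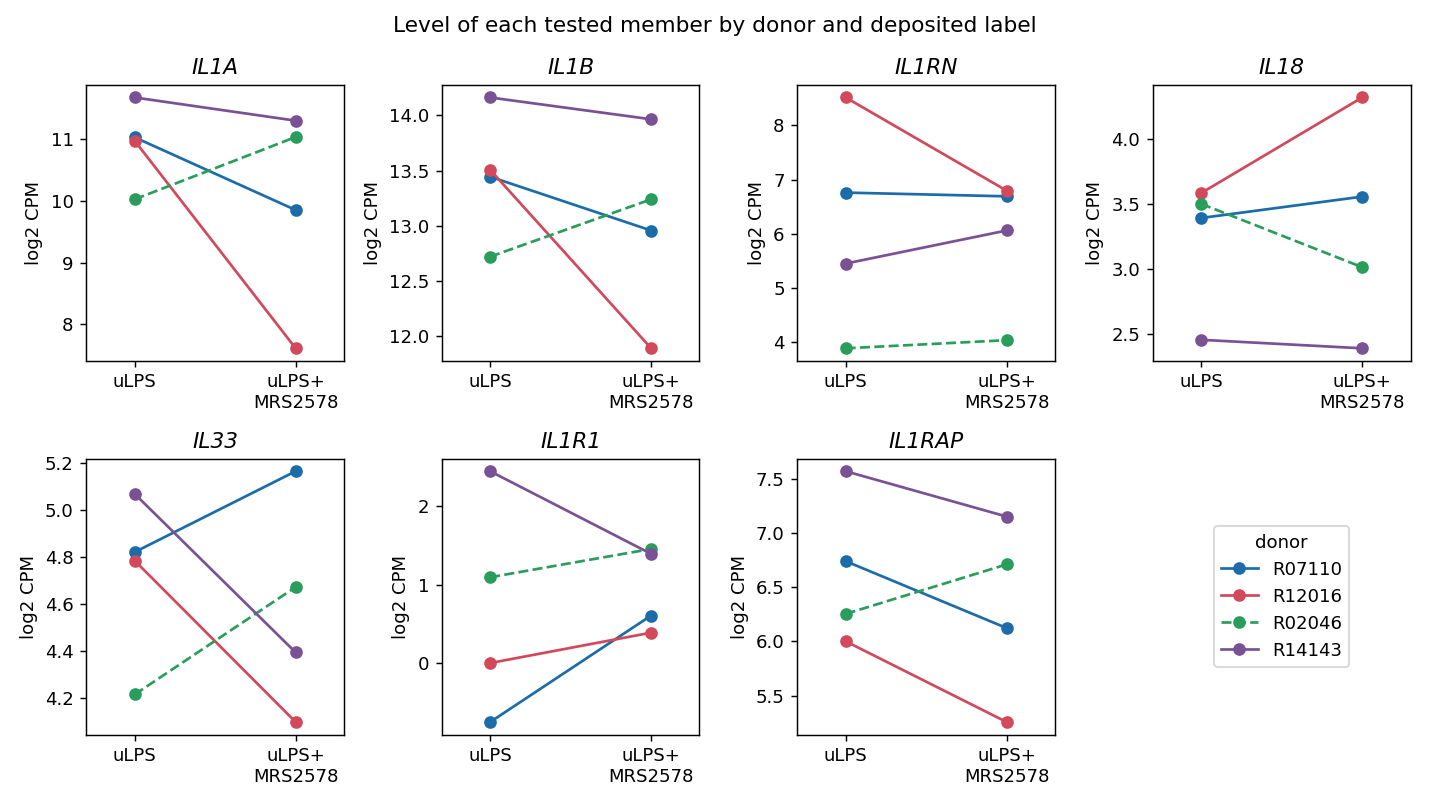
Level of the 7 tested members in each library, as log2 CPM (vertical axes, scaled separately), with uLPS and uLPS+MRS2578. A line joins the libraries of a donor, and the dashed line is R02046, whose IL1A, IL1B and IL1RAP lines rise where those of the other 3 donors fall, while its IL1RN points are the lowest of the 8.

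The difference between donors was tested in the same model, a test added after the data were examined. The donor means of IL1RN spanned 3.70 log2 units, and it passed (adjusted p = 0.0293; with R02046 exchanged, adjusted p = 0.00782). Leaving out R02046 ended this call (adjusted p = 0.142). It held without R07110, R12016 or R14143 (adjusted p = 0.0397, 0.00503 and 0.0428). IL1RAP spanned 1.73 log2 units and also passed (adjusted p = 0.0474, and 0.00103 with R02046 exchanged). Without R07110, R12016 or R14143 its adjusted p was 0.0629, 0.127 and 0.222, and without R02046 it was 0.00677. IL1A and IL1B spanned 2.20 and 1.37 log2 units and did not pass (adjusted p = 0.479 and 0.318). In all, 2 of 7 members were called, beside 7.35% of the 12131 genes tested. With R02046 exchanged 3 of 7 were called, beside 18.9% of all genes, the third being IL18 (adjusted p = 0.0187). IL18 did not pass with the deposited labels (adjusted p = 0.0768), but it did without R02046 (adjusted p = 0.0433).

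The balance of agonist to antagonist transcripts varied widely between donors, and its difference between treatments did not pass a test. With uLPS there were 103 IL1B reads per IL1RN read (R07110), 31.8 (R12016), 461 (R02046) and 421 (R14143). With uLPS+MRS2578 there were 77.1, 34.2, 596 and 240. IL1B reads exceeded IL1RN reads in all 8 libraries, and the ranges of the groups overlapped, with a 14.5-fold spread among the uLPS libraries. The within-donor difference of the log2 ratio averaged -0.19 ± 0.53 (SD, n = 4, exact two-sided sign-flip permutation p = 0.625), and it was below 0 in 2 of 4 donors. It was -0.37 ± 0.46 without R02046 (n = 3, exact p = 0.5) and -0.37 ± 0.38 with R02046 exchanged (n = 4, exact p = 0.25). With 4 donors the smallest p this test can give is 0.125, and with 3 it is 0.25.

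For IL1A there were 19.4 reads per IL1RN read (R07110), 5.51 (R12016), 71.4 (R02046) and 75.5 (R14143) with uLPS. With uLPS+MRS2578 there were 8.97, 1.76, 130 and 38.0. The ratio was lower with MRS2578 in the donors other than R02046, with log2 differences of -1.11 in R07110, -1.65 in R12016 and -0.99 in R14143, and higher in R02046 (0.86). The mean difference was -0.72 ± 1.09 (SD, n = 4, exact p = 0.25). Without R02046 it was -1.25 ± 0.35 (n = 3, exact p = 0.25) and with R02046 exchanged -1.15 ± 0.35 (n = 4, exact p = 0.125), in both cases the smallest p the test can give.

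The ratio of the agonists to each other was added after the data were examined. The within-donor test of its difference between treatments could not pass at 0.05 with 4 donors. With uLPS, IL1A reads were 0.155 to 0.188 of the IL1B reads, a 1.22-fold range over the 4 donors. With uLPS+MRS2578 the range was 0.0513 to 0.218, or 4.24-fold. The low end was R12016 alone, since the other 3 donors lay between 0.116 and 0.218, and the high end was R02046. With R02046 exchanged the ratios ran from 0.173 to 0.218 with uLPS and from 0.0513 to 0.158 with uLPS+MRS2578. The ratio was then lower with MRS2578 in all 4 donors. The mean within-donor difference of the log2 ratio was -0.53 ± 0.95 (SD, n = 4, exact p = 0.375). It was -0.88 ± 0.80 without R02046 (n = 3, exact p = 0.25) and -0.78 ± 0.68 with R02046 exchanged (n = 4, exact p = 0.125). In both cases this is the smallest p the test can give. Without R12016 it was -0.13 ± 0.59 (n = 3, exact p = 0.75). The 3 ratios share genes, and none could reach a within-donor exact p under 0.05 in this design, even without adjustment.

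**Figure D2:**
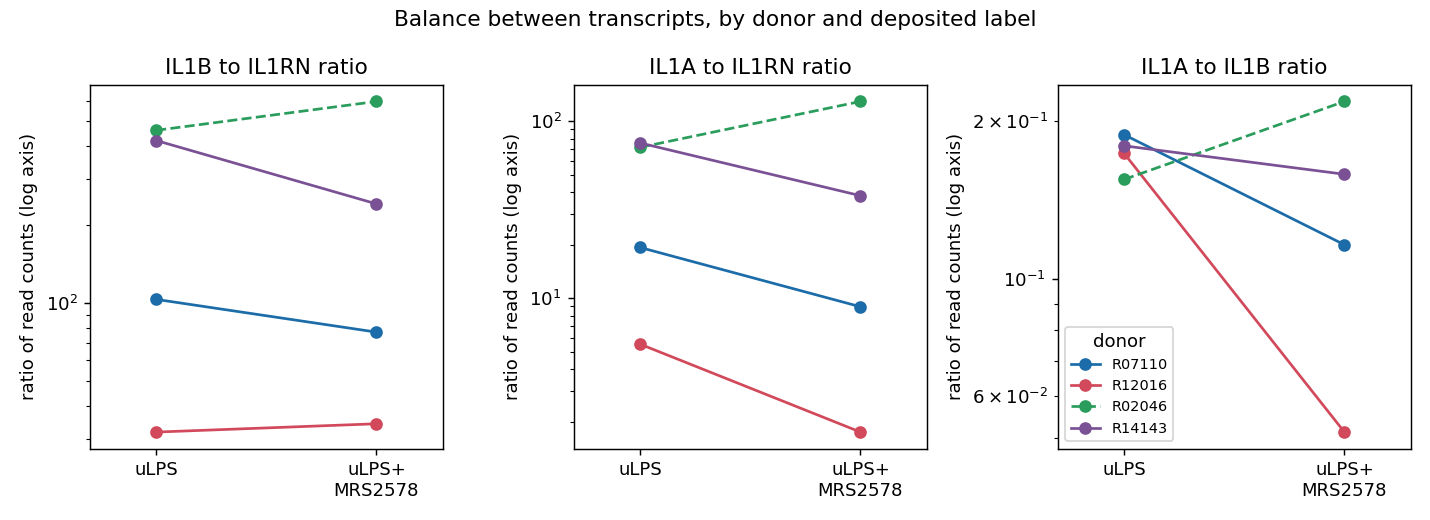
Ratios of read counts (log axes) of IL1B to IL1RN, IL1A to IL1RN and IL1A to IL1B in each library, with a line for each donor (dashed for R02046). The order of the donors in the IL1B to IL1RN ratio, from 31.8 in R12016 to 461 in R02046 with uLPS, is the same in both groups.

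IL18, which encodes a precursor cleaved by caspase-1, was expressed at a low level. It was at 10.4, 11.9, 11.2 and 5.39 CPM with uLPS in R07110, R12016, R02046 and R14143, and at 11.6, 19.8, 7.97 and 5.14 CPM with uLPS+MRS2578. R14143 was lowest in both groups, and the donors split evenly in direction. The fitted log2 fold change was 0.11 ± 0.21 (adjusted p = 0.954), 0.30 ± 0.20 without R02046 (adjusted p = 0.574) and 0.35 ± 0.17 with R02046 exchanged (adjusted p = 0.365). No read was counted for IL18BP in any library, so no ratio of IL18 to its inhibitor could be formed. Counting error alone allows up to 0.0915 CPM in the largest library and 0.325 CPM in the smallest. Which exons the authors counted is not known, so the 0 may not show absence of the transcript. IL18R1 had 2 to 33 counts and did not pass the filter on low counts.

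IL33 was the steadiest of the tested members, with a 2.10-fold range over the 8 libraries. It was at 28.1, 27.4, 18.5 and 33.4 CPM with uLPS and at 35.7, 17.0, 25.4 and 20.9 CPM with uLPS+MRS2578, in the same order of donors. It was lower with MRS2578 in R12016 and R14143 and higher in R07110 and R02046. The fitted log2 fold change was -0.14 ± 0.23 (adjusted p = 0.944), -0.33 ± 0.23 without R02046 (adjusted p = 0.594) and -0.35 ± 0.18 with R02046 exchanged (adjusted p = 0.389).

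Among the receptors, the accessory chain IL1RAP (chr2:7196867-7283014, minus strand) was the most abundant. With uLPS its level was 107 CPM (R07110), 64.0 CPM (R12016), 76.2 CPM (R02046) and 190 CPM (R14143). With uLPS+MRS2578 it was 69.6, 38.1, 105 and 142 CPM. IL1RAP thus showed the directions of IL1A and IL1B, with differences of -0.62, -0.74 and -0.42 log2 units in R07110, R12016 and R14143 and 0.46 in R02046. With the deposited labels it did not pass the test, at a log2 fold change of -0.34 ± 0.20 (adjusted p = 0.878), nor without R02046, at -0.59 ± 0.11 (adjusted p = 0.155). With R02046 exchanged it was -0.56 ± 0.09 with an adjusted p of 0.0496, just under the threshold of 0.05. That call ended under edgeR's earlier estimation of the spread between replicates (adjusted p = 0.0592), without R07110 (adjusted p = 0.352) and without R12016 (adjusted p = 0.190). It held without R14143 (adjusted p = 0.0156), by edgeR's likelihood ratio test (adjusted p = 0.000283) and by DESeq2's Wald test (adjusted p = 9.77e-05).

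IL1R1 was detected at 14 to 105 counts per library. It was at 0.487, 0.894, 2.03 and 5.34 CPM with uLPS and at 1.42, 1.20, 2.63 and 2.52 CPM with uLPS+MRS2578. It was higher with MRS2578 in R07110, R12016 and R02046 and lower in R14143, and the fitted log2 fold change of 0.14 ± 0.45 (adjusted p = 0.973) turned to -0.12 ± 0.43 with R02046 exchanged (adjusted p = 0.917) and to -0.02 ± 0.56 without R02046 (adjusted p = 0.995). The level of IL1R1 ran with that of the 5 fibroblast markers, a comparison made after the values were seen. The other marker sums were not compared with it. The library with most IL1R1, R14143 with uLPS, also had the highest fibroblast sum (1191 CPM). IL1A, IL1B, IL1RAP and IL18R1 were highest in that library too. Of the 8 libraries, 6 held the same rank in IL1R1 and in the fibroblast sum. The libraries come in pairs from each donor, and R14143 and R02046 lay above the other donors in both measures. The part of fibroblasts in the IL1R1 reads was not tested, and in bulk libraries fewer cells of a type and less RNA per cell cannot be told apart. The decoy IL1R2 had 0 to 11 counts per library and was at 0 in 1 library, so its ratio to IL1R1 is not given.

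**Figure D3:**
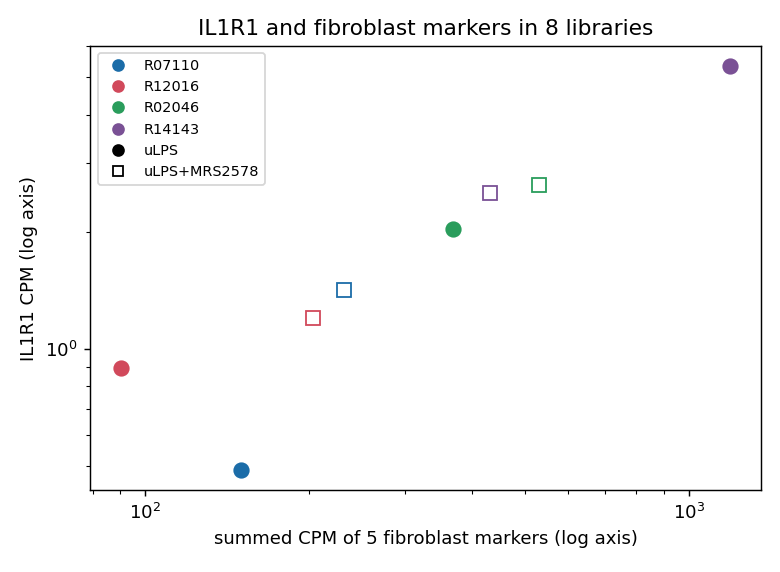
Level of IL1R1 (CPM, log axis) against the summed level of 5 fibroblast markers (CPM, log axis) in the 8 libraries, coloured by donor, with filled circles for uLPS and open squares for uLPS+MRS2578. IL1R1 was highest, at 5.34 CPM, in the library with a fibroblast sum of 1191 CPM.

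Over the members as a group, 0 of the 7 tested were called with the deposited labels (0% of all genes tested), and 0 had an unadjusted p under 0.05 (5.14% of all genes). Without R02046 0 were called (0% of all genes), and 2, IL1A and IL1RAP, had an unadjusted p under 0.05 (13.6% of all genes). With R02046 exchanged 1 was called (0.618% of all genes), and 3, IL1A, IL1B and IL1RAP, had an unadjusted p under 0.05 (16.4% of all genes). The fitted change was below 0 for 5 of 7 members with the deposited labels, beside 52.1% of all genes, and for 6 of 7 both without R02046 (50.5% of all genes) and with R02046 exchanged (49.8%). The median log2 fold change of the 7 was -0.25, beside -0.01 over all genes. IL1A, IL1B and IL1RAP were lower with MRS2578 in each of the donors other than R02046, as were 19.8% of all genes tested, and so in all 4 donors once R02046 was exchanged, as were 13.2%. With the deposited labels 0 tested members were lower in all 4 donors (6.49% of all genes) and 0 were higher (6.43%), and 0 were higher in all 3 donors other than R02046 (17% of all genes). The groups did not separate for any member under either assignment, as they did for 1.08% of all genes with the deposited labels and 2.97% with R02046 exchanged.

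**Figure D4:**
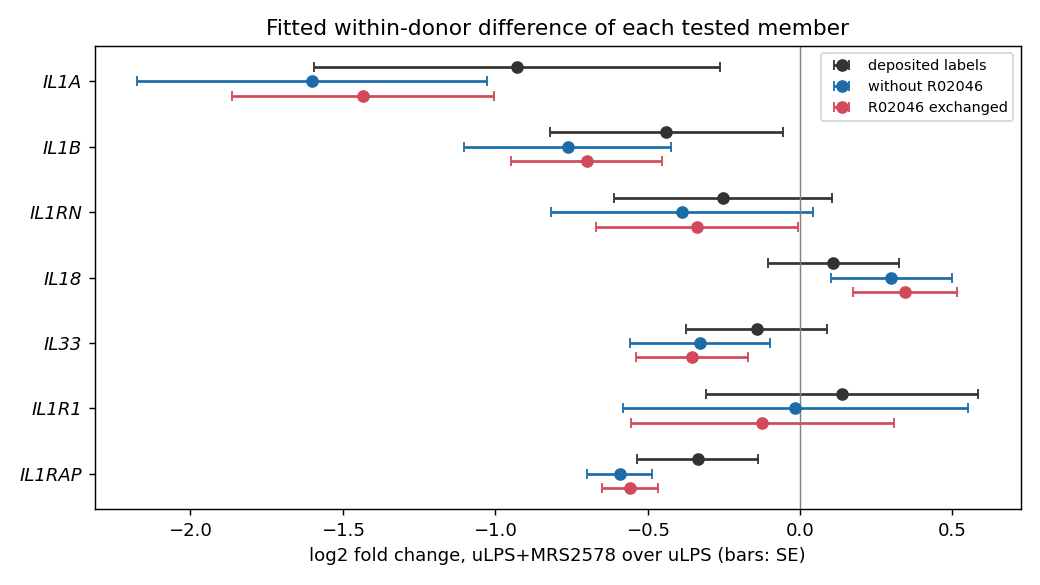
Fitted log2 fold change of uLPS+MRS2578 over uLPS with its SE (bars) for the 7 tested members, with the deposited labels, without R02046 and with the libraries of R02046 exchanged. IL1A, IL1B and IL1RAP lie below 0 in all 3 analyses, and IL1R1 lies near 0 with a changing sign.

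The remaining genes of the system were looked at through 3 lists. Of 16 genes of interleukin-1 receptor signaling, 15 were tested and 0 were called (0% of all genes). At an unadjusted p under 0.05 there were 0 (5.14% of all genes). The fitted change was below 0 for 10 (52.1% of all genes), with a median log2 fold change of -0.02. The most abundant were PELI1, an E3 ligase of the IRAK complex, the kinase IRAK2 and the adaptor TAB2, with fitted changes of -0.42 ± 0.21, -0.42 ± 0.20 and -0.18 ± 0.17. With R02046 exchanged these were -0.59 ± 0.13, -0.57 ± 0.12 and -0.40 ± 0.09, with adjusted p of 0.0855, 0.0928 and 0.0979. Again 0 of the list were called (0.618% of all genes), and 6 of 15 had an unadjusted p under 0.05, beside 16.4% of all genes. Without R02046 0 were called (0% of all genes), and 4 of 15 had an unadjusted p under 0.05, beside 13.6% of all genes.

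Of 13 genes of maturation and release found in the files, 12 were tested. With the deposited labels 0 were called (0% of all genes), and with R02046 exchanged also 0 (0.618% of all genes). The fitted change was below 0 for 9 in both (52.1% and 49.8% of all genes). At an unadjusted p under 0.05 there were 0 with the deposited labels (5.14% of all genes), 4 with R02046 exchanged (16.4%) and 3 without R02046 (13.6%). Leaving out R02046 again gave 0 called (0% of all genes). The caspase-1 gene could not be matched by its symbol and was not analysed here. NINJ1, which ruptures the membrane of dying cells, TXNIP, a partner of the NLRP3 inflammasome, and the channel gene PANX1 were the most abundant, at 377 ± 50.6, 373 ± 125 and 328 ± 70.2 CPM (SD, n = 8). Of the 11 further family members found in the files, only IL36G and the interleukin-33 receptor gene IL1RL1 were abundant enough to be tested. IL36G was at 1.90 to 17.9 CPM and IL1RL1 at 0.766 to 15.2 CPM, and their fitted changes of -0.64 ± 0.29 and -0.84 ± 0.42 did not pass (adjusted p = 0.878 for both). With R02046 exchanged they were -0.83 ± 0.20 for IL36G (adjusted p = 0.106) and -0.59 ± 0.49 for IL1RL1 (adjusted p = 0.60), and without R02046 -0.91 ± 0.22 (adjusted p = 0.199) and -1.05 ± 0.53 (adjusted p = 0.457).

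The levels of IL1A and IL1B were correlated over the 8 libraries (Pearson's r of log2 CPM 0.95), which share donors and the R02046 question. Among 7085 genes with at least 10 CPM in every library, the 5 most like IL1B were FLCN, ATP13A2, RACGAP1, TMED4 and PTGER2, with r from 0.96 to 0.98. The 5 most like IL1A were DHX36, BHLHE41, JOSD1, MMP14 and CCNF, with r from 0.96 to 0.99. These are descriptions of 8 libraries and carry no p.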

How the data were processed

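RNA of 8 libraries (4 donors, 2 conditions) was used. The deposited values are whole-number counts per Ensembl gene, which the authors made without normalization. The sources differ on how: the sample labels name Trimmomatic 0.30, TopHat2 2.0.14, SAMtools 1.3 and HTSeq 0.6.1p1, and the study's methods name fastp, STAR, SAMtools and HTSeq. Both give Mmul_10. The labels also give 10 ng/mL M-CSF where the methods give another concentration. The strand setting and annotation release are not given in the sources used here.

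Counts were analysed in R 4.3.3 with edgeR 4.0.16: filterByExpr (minimum count 10; 12131 of 35432 genes kept), TMM scaling, and the quasi-likelihood F-test with donor as a block, Benjamini-Hochberg adjustment over all genes tested, at 0.05. SE is the one implied by the test statistic. CPM are TMM-scaled, and a prior count of 2 was used for log2 CPM. Blocking by donor follows from the labels, which put both libraries of a pair in one animal; their deviations from the group means correlated at 0.458 to 0.602 across genes. No libraries were duplicates. Replicates are animals. A count of 0 allows up to 3 counts, for counting error only. Ratios were tested within donors by an exact two-sided sign-flip permutation test. Gene positions and lengths are from the RefSeq annotation of Mmul_10. The model was also run on simulated counts with no donor differences and no exchanged pair, so that check covers neither.

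The quasi-likelihood setting of edgeR was not fixed in advance. The fits were first run with the tool's earlier estimation, its default in this version. They were then compared under 5 settings and both assignments of R02046, with the numbers of calls in view, and the newer estimation was kept as the main one because an earlier analysis of these data used it. All 5 are reported under the closing section, among 26 fits of the MRS2578 effect. The members and gene lists were chosen with earlier results of these data known. Named are the 10 members, the 3 most abundant genes and any called gene of each pathway list. The 5 genes most like IL1A and IL1B, 6 heat shock genes and the leading gene of some marker lists are also named. Alternatives were other scalings, tools, filters and prior counts, no donor block, each donor left out, and R02046 exchanged; DESeq2 1.42.0 was one tool. Promoter windows of IL1A, IL1B and IL1RN were searched for motifs and left out, because the IL1B model lacks its untranslated start.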

Additional observations from a re-analysis of the deposited data

Results flagged for a closer look

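Of 30 groups of 4 values checked for a value far from the others, 1 was picked out, and chance alone picks out about 1 in 20. The level of IL18 with uLPS in R14143, at a log2 CPM of 2.46, lay far below the other donors, whose values were between 3.39 and 3.58, so that the gap made up 0.830 of the range. The same donor was also lowest with uLPS+MRS2578, at 5.14 CPM.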

How the results depend on the processing

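The main limits are 4 donors, 1 donor whose assignment is in doubt, and no unexposed cells. With the deposited labels 0 members were called under every alternative. With R02046 exchanged the newer, robust and no-prior-dispersion estimations and library sizes over all genes each called 1 (IL1RAP), while edgeR's earlier estimation called 0, at 39 genes in all against 75. The deposited labels gave 0 called genes in all under the newer and the earlier estimation, with 624 and 590 at an unadjusted p under 0.05; DESeq2 called 1 and edgeR's likelihood ratio test 5. With R02046 exchanged the likelihood ratio test called 3 members (IL1A, IL1B, IL1RAP; 616 genes) and DESeq2's Wald test 2 (IL1B, IL1RAP; 583 genes). Leaving out a donor with R02046 exchanged gave 0 to 2 members, 2 (IL1A, IL1RAP; 918 genes) without R14143 and 0 without R07110 or R12016 (0 and 5 genes). The donor difference was called for 1 or 2 members with a donor left out (2.73% to 7.39% of all genes), 1 (IL1RN) under the earlier estimation (6.35%) and 3 with R02046 exchanged (18.9%). The cause was not tested.

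Without the replicate block 0 members were called under both assignments (0 genes in all; 250 and 709 at an unadjusted p under 0.05), and the IL1B to IL1RN difference stayed at -0.19 (exact p = 0.914). That difference ran from -0.37 to 0.019 with a donor left out, above 0 without R14143. No ratio passed its exact permutation test under any alternative. The within-donor tests could not have passed, as their smallest p is 0.125 with 4 donors and 0.25 with 3. Fitted changes of IL1R1 turned to -0.12 with R02046 exchanged (also under the robust, no-prior-dispersion and all-gene library size settings), -0.16 without the block, -0.35 with both, and ran between -0.55 and 0.79 with a donor left out. With a donor left out, under either assignment, those of IL1RN ran from -0.69 to 0.24, of IL18 from -0.10 to 0.45 and of IL33 from -0.61 to 0.041. IL1RN turned sign without R12016 under both assignments, IL18 without R12016 and IL33 without R12016 or R14143 with the deposited labels only. Those of IL1A ran from -1.82 to -0.19 and of IL1B from -0.87 to -0.05, smallest without R12016. The IL18 to IL18BP and IL1R2 to IL1R1 alternatives gave no value, as IL18BP was at 0 and IL1R2 too low.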
